A study of Mus musculus with 22 samples.

Results

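Mouse E14 embryonic stem cells were profiled by poly(A)-selected RNA-seq in 11 groups, and each group has a library numbered 1 and a library numbered 2. The comparison described here sets the 11 libraries numbered 2 against the 11 libraries numbered 1, group by group, so that all 22 libraries of the series take part. It asks which genes and functions differed between the numbers in every group, whatever the treatment. Members were chosen by the number at the end of each sample title. One group is labelled NC and names no compound. The other groups were given Bromosporine (a bromodomain ligand), Chaetocin (an inhibitor of histone lysine methyltransferases), CPTH2 or Garcinol (both inhibitors of histone acetyltransferases), DZNep (an inhibitor of S-adenosylhomocysteine hydrolase), IOX1 (an inhibitor of 2-oxoglutarate-dependent oxygenases), MS023 (an inhibitor of type I arginine methyltransferases), OICR, UNC0379 (an inhibitor of the methyltransferase SETD8) or Valproate (a histone deacetylase inhibitor). The labels give no dose and no time, and they do not say whether the numbers mark separate cultures, RNA extractions or sequencing runs. A p-value therefore measures only how regular a difference was over the 11 pairs, which share 1 cell line.

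Embryonic stem cells keep the ability to form every tissue through a network of transcription factors that includes Pou5f1, Sox2, Nanog and Esrrb. Cells in such a culture are not alike. A few pass through a state that resembles the embryo at the 2-cell stage and express Zscan4 genes, others move towards the formative state or towards primitive streak and neural fates, and imprinted genes such as Meg3 can be switched off for good. Large clusters of young KRAB zinc finger genes, whose products bind transposable elements, are also expressed in these cells. Lists of genes for these states, and for general cell functions, were used to describe the differences.

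The deposited values are read counts that were normalized so that every library has the same distribution and were then rounded. The median over 18487 genes was 409 and the largest value 221616 in every library, which leaves depth unknown. Between 1065 and 1655 genes were at 0 in a library numbered 1 and between 1110 and 1707 in a library numbered 2. The 8 stem cell markers (Pou5f1, Sox2, Nanog, Zfp42, Esrrb, Dppa5a, Sall4 and Utf1) were all present, with a summed value of 169705 to 256641 in number 1 and 156432 to 273147 in number 2. The 7 fibroblast markers, which would show feeder cells, summed to 27 to 1612 in number 1 and 43 to 1874 in number 2, and Dcn was listed at 0 in all libraries. Primitive endoderm markers summed to 193 to 432 and 202 to 654 and were higher in number 2 in 9 of 11 pairs. The 2 blood markers in the table summed to 5 to 247 and 7 to 615. The part of other cell types in the results was not tested.

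The difference between the numbers was small for most genes and present in very many. Of 17275 tested genes, 9094 (52.6%) had an adjusted p under 0.05 in a paired limma fit, with a median size of 1.29-fold among them. Of these, 5157 were higher in number 2 (29.9% of tested genes) and 3937 were lower (22.8%). A gene is called here when its adjusted p was under 0.05 and its fold over 2, which 698 genes reached (4.04%), 361 of them higher in number 2 (2.09%) and 337 lower (1.95%). In every pair without exception, 2123 genes were higher in number 2 (12.3%) and 1511 were lower (8.75%). Among the called genes, 147 were higher and 180 lower in all 11 pairs. The 11 values of number 1 and the 11 of number 2 did not overlap for 50 genes (0.289%).

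Calls were most frequent among genes with low values. In the 10% of tested genes with the lowest mean log2 value, 9.49% were called higher and 4.92% lower. In the 10% with the highest, 0.116% were called higher and 0.637% lower, against 2.09% and 1.95% of all tested genes. Among 6638 genes with a mean of at least 1000 in either number, 18 were called higher and 64 lower. A value of 0 in at least 1 library was present for 258 of the 698 called genes, and the remaining 440 were above 0 in all libraries (219 higher, 221 lower). For the median gene, the treatment group took 66.6% of the variance over the 22 libraries, the number 11.2%, and 14.1% was left. These are shares of raw sums of squares, and a term with more levels takes a larger share even without an effect. The group has 11 levels, so the shares do not rank treatment against number. The number took over 50% of the variance for 985 genes.

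The size of the difference varied by group, and NC showed the smallest. In the NC pair 1162 genes differed by more than 2-fold, against 2736 in the DZNep pair, the largest count. Over the 147 genes called higher in all pairs, the NC library numbered 1 had the highest value of its 11 for 44 genes and the DZNep library for 43. For the 180 genes called lower in all pairs, the highest number 2 value belonged to Chaetocin for 63 genes and to MS023 for 44, and the lowest number 1 value to DZNep for 74 and to NC for 45. Since these genes were selected by the same comparison, the positions describe how the libraries lie and test nothing.

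**Figure D1:**
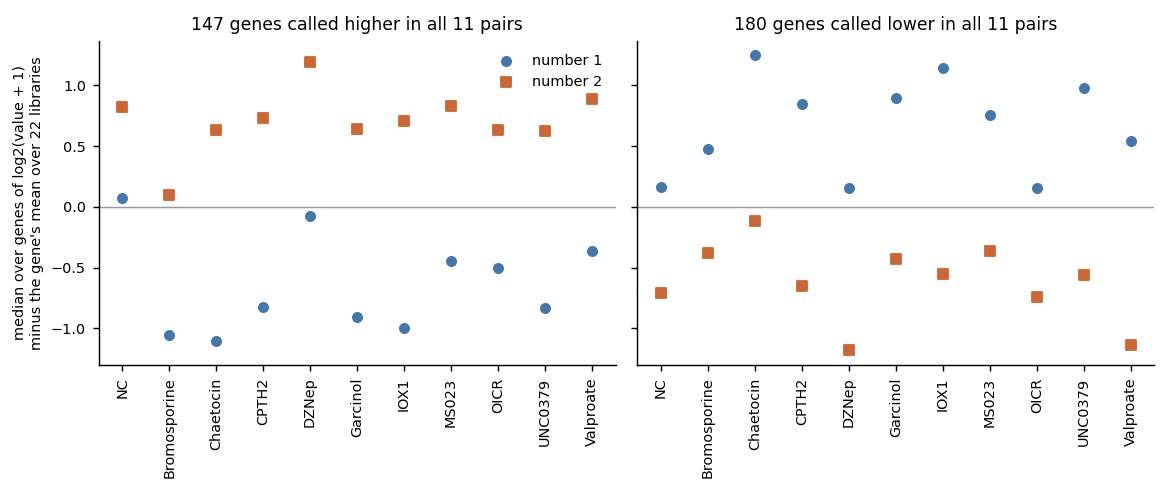
Median over genes, in each library, of log2(value + 1) after subtracting each gene's mean over the 22 libraries, for the 147 genes called higher (left) and the 180 called lower (right) in all 11 pairs. Circles are libraries numbered 1 and squares libraries numbered 2. In the left panel the NC library numbered 1 (0.07) lies near the Bromosporine library numbered 2 (0.10), and in the right panel the Chaetocin library numbered 2 (-0.12) lies closest to the number 1 libraries of OICR, DZNep and NC (0.15 to 0.16).

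One regional difference lay in a cluster of KRAB zinc finger genes on chromosome 4, from Zfp990 to Zfp933 (chr4:145510759-147848366, mm10). All of its 22 tested protein-coding genes were lower in number 2 at an adjusted p under 0.05 (22.8% of all tested genes were). In every pair, 19 of them were lower, and 8 were called, against 1.95% of all tested genes. This cluster, like the Dlk1 to Dio3 interval and the Gstm cluster, was chosen after the values had been seen. The shares of all tested genes are therefore given for scale and test nothing. Many of the 22 genes also share much of their sequence, so they are not 22 separate measurements. The median difference of these 22 genes was -0.85 on the log2 scale, and they ranged from -1.96 to -0.17. Of the 25 other genes in the interval, mostly pseudogenes and long noncoding RNAs, 13 were lower, 4 higher and the others did not pass.

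Zfp990 had values of 6540, 13821 and 32076 (lowest, median and highest) in number 1 and 3195, 4163 and 15363 in number 2. It was lower in all 11 pairs, and the sets overlap because the Chaetocin library numbered 2, at 15363, exceeded 6 of the number 1 libraries. The log2 difference was -1.67 (SE 0.19, adjusted p = 2.9e-05, limma). Zfp980 had medians of 11831 and 3924 and a difference of -1.35 (SE 0.18, adjusted p = 8.6e-05). Rex2, which encodes a related zinc finger protein, went from a median of 4528 (1354 to 9098) in number 1 to 858 (616 to 4661) in number 2, a difference of -1.96 (SE 0.26, adjusted p = 8.3e-05). In the NC pair, where the gap was narrowest, Rex2 stood at 1354 and 905. At the other end, Zfp982 had medians of 2928 and 2653 and a difference of -0.17 (SE 0.04, adjusted p = 0.0015), yet it too was lower in all pairs.

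The members of this cluster are recent copies of each other, and their sequences show it. A search of the RefSeq promoter windows (250 bases before to 50 after the start, GRCm38.p6) for 12-base stretches found GGAAGCTAATTA, on either strand, in 12 of the 15 cluster genes with a window and in no other of 27025 genes with one (0.0444% of all). It is 1 of 4 such stretches held by that many cluster genes, and it was picked after the sequences had been compared. The first base lay between 104 and 162 bases before the start. Each line gives the coordinates of the window, and the stretch is shown in capitals with 30 bases on each side, 5′ to 3′ on the strand of the gene, for 10 of these genes, to let the copies be compared across the range of their differences:
Gm13212 (chr4:145584950-145585249, + strand): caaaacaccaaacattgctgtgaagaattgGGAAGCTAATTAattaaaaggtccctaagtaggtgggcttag
Zfp980 (chr4:145670447-145670746, + strand): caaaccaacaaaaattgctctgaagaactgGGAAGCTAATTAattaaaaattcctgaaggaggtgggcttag
Zfp987 (chr4:146097062-146097361, + strand): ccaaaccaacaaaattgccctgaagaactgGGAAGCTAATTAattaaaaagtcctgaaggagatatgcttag
Zfp600 (chr4:146156577-146156876, + strand): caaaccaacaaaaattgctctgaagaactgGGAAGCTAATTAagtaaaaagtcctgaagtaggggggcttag
Zfp981 (chr4:146514670-146514969, + strand): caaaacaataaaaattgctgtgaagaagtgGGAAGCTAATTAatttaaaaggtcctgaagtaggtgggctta
Rex2 (chr4:147021600-147021899, + strand): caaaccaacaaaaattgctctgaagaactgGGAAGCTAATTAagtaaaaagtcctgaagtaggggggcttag
Zfp982 (chr4:147492167-147492466, + strand): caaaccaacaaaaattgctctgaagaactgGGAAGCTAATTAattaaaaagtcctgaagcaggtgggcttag
Zfp985 (chr4:147553027-147553326, + strand): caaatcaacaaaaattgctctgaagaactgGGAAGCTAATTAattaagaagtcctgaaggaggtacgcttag
Zfp979 (chr4:147642459-147642758, - strand): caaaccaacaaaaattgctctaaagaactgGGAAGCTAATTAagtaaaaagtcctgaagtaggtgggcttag
Zfp984 (chr4:147809739-147810038, - strand): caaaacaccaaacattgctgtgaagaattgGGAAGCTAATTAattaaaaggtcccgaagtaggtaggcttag
Rex2 (chr4:147021600-147021899) and Zfp600 (chr4:146156577-146156876) share an unbroken run of 285 bases of their 300-base windows, and Rex2 shares 65 with Zfp980. In their transcripts, 95.4% of the 31-base stretches of Rex2, 91.9% of Zfp600, 85.0% of Zfp980, 60.9% of Zfp981 and 50.5% of Zfp990 also occur in other genes. Reads from the copies cannot be fully told apart, so the values of single members are uncertain. Among the genes that hold the stretch, the differences still ran from -0.17 (Zfp982) to -1.96 (Rex2). Zfp993, 4933438K21Rik and Zfp933, whose windows do not hold it, had differences of -0.37, -0.68 and -0.43. Of 365 genes with a Zfp symbol elsewhere in the genome, 165 were lower and 62 higher, with a median of -0.13. Of all tested genes, 22.8% were lower and 29.9% higher. Calls numbered 9 lower and 2 higher among the 365, against 1.95% and 2.09% of all tested genes.

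**Figure D2:**
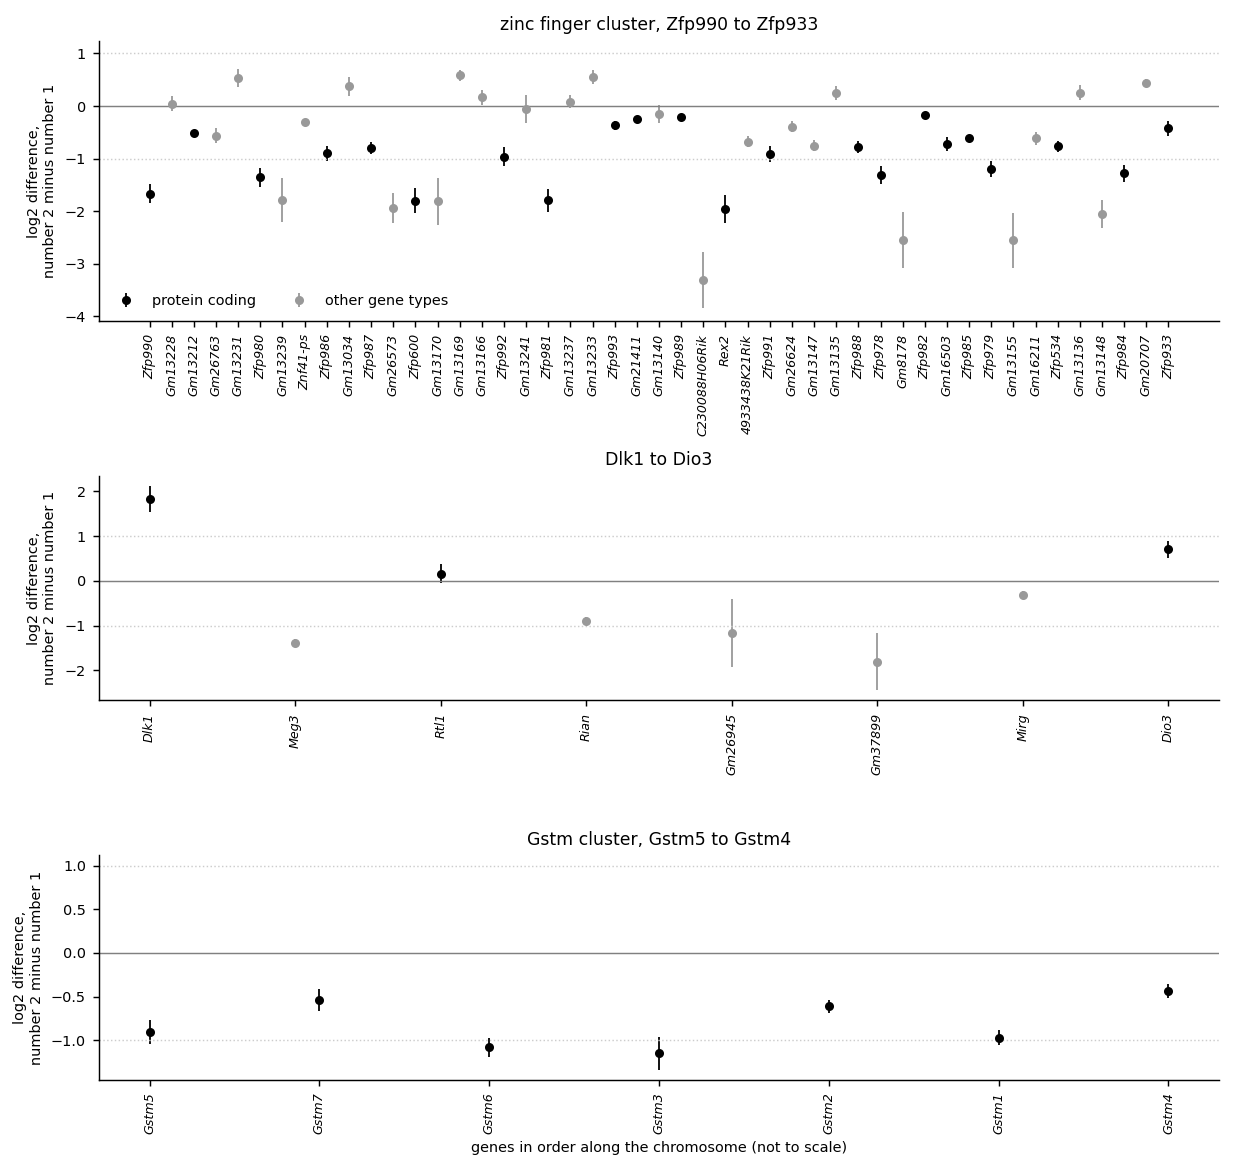
Log2 difference (number 2 minus number 1, points) with its standard error (bars) for the genes of 3 regions in their order along the chromosome, at equal spacing. Black points are protein-coding genes and grey points other gene types, and dotted lines mark 2-fold. All 22 protein-coding genes of the zinc finger cluster lie below 0, Meg3, Rian and Mirg lie below 0 while Dlk1 and Dio3 lie above, and all 7 Gstm genes lie below 0.

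The second region was the imprinted Dlk1 to Dio3 interval (chr12:109452823-110281097), where noncoding RNAs are made from the maternal copy and protein-coding genes from the paternal copy. Of its 5 tested noncoding genes 4 were lower in number 2 (22.8% of all tested genes were). Of its 3 coding genes 2 were higher (29.9% of all tested genes were) and 1 did not pass. Meg3, the first noncoding gene of the domain, had values of 2623, 17254 and 24752 in number 1 and 848, 5925 and 10684 in number 2. Its libraries were lower in number 2 in all 11 pairs, and the sets overlap through the number 1 libraries of DZNep (2623) and Valproate (6960). The difference was -1.39 (SE 0.09, adjusted p = 2e-06). Rian, which carries small nucleolar RNAs, went from a median of 30846 to 15357, with a difference of -0.90 (SE 0.09, adjusted p = 1.5e-05), lower in all pairs. Mirg, the host of a microRNA cluster, had a difference of -0.32 (SE 0.09, adjusted p = 0.012). Gm26945 and Gm37899 in the same interval were at 0 in at least 1 library, with differences of -1.16 (adjusted p = 0.21) and -1.80 (adjusted p = 0.031). Gm26945 did not pass but was lower in all 11 pairs, with medians of 1307 and 1099. Its largest gap was in the DZNep pair, at 800 and 0.

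Dlk1, a paternally expressed ligand of the Notch family, was low throughout, at 1, 5 and 23 in number 1 and 7, 24 and 34 in number 2. It was higher in number 2 in all 11 pairs, and the sets overlap through the NC library numbered 1, at 23, and the Bromosporine library numbered 2, at 7. The difference was 1.83 (SE 0.28, adjusted p = 0.00023), and 0.99 with a pseudocount of 10, just short of a call. Dio3, a deiodinase, had a difference of 0.70 (SE 0.19, adjusted p = 0.0084) and Rtl1, a retrotransposon-derived gene, of 0.16 (SE 0.22, adjusted p = 0.56). The RefSeq promoter windows of both end members are given with CG dinucleotides, the targets of DNA methylation, in capitals, because the pair moved in opposite directions (Dlk1 chr12:109452573-109452872 and Meg3 chr12:109540746-109541045, GRCm38.p6, both on the plus strand, 5′ to 3′):
Dlk1: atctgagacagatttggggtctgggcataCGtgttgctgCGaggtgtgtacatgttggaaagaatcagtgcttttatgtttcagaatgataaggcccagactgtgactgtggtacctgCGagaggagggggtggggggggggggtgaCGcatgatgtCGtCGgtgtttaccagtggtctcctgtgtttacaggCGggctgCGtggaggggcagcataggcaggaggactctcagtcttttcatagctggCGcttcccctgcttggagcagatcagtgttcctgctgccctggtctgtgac
Meg3: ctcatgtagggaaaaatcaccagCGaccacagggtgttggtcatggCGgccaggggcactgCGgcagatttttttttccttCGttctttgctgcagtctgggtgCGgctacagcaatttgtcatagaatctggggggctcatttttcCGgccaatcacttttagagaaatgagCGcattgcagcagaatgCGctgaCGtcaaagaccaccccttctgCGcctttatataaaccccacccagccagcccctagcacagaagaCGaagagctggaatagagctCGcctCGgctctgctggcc
The Meg3 window holds 13 CG dinucleotides, as many as or more than 63.7% of all 32851 windows, and the Dlk1 window holds 9 (56.5%). Methylation was not measured. Of the 26 tested imprinted genes, 6 were higher, 9 lower and 11 did not pass, with a median of -0.01. Snrpn, a splicing protein made from the paternal copy, went from a median of 6641 to 10499 (difference 0.71, SE 0.08, adjusted p = 4e-05), and Phlda2, made from the maternal copy, had a difference of -0.88. H19 was at 17 or less in every library, with a difference of -0.01 (adjusted p = 0.98).

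Another run of neighbours was the Gstm cluster (chr3:107895821-108044894), which encodes glutathione transferases that detoxify electrophiles. All 7 tested members were lower in number 2 at an adjusted p under 0.05 (22.8% of all tested genes were). In every pair, 5 of them were lower (8.75% of all tested genes were). Between 2.15% (Gstm7) and 37.7% (Gstm3) of their 31-base stretches recur in other genes, so the members are not fully separate measurements. Gstm1 had medians of 2619 (1229 to 4186) and 1412 (815 to 1694) with a difference of -0.97 (SE 0.09, adjusted p = 1.2e-05). Gstm3 had medians of 853 and 370 and a difference of -1.15 (SE 0.19, adjusted p = 0.00032), with DZNep as the exception, at 44 in number 1 and 78 in number 2. Gstm1 is also on the list of targets of NRF2, the regulator of the antioxidant response, where 7 of 21 genes were higher, 3 lower and none called.

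Among named genes called higher that moved the same way in all 11 pairs, were above 0 in all libraries and had a mean of at least 100 in number 2, the largest difference was that of Myo1f, an unconventional myosin known from white blood cells. Its values were 29, 196 and 1065 in number 1 and 224, 1346 and 2285 in number 2. It was higher in all pairs, and Valproate gave the lowest value of both sets. The difference was 2.58 (SE 0.21, adjusted p = 6.8e-06). In NC the values were 1065 and 1565, the narrowest of the 11 gaps, while IOX1 had the widest, from 89 to 888. Prrt3 followed, at 61, 173 and 636 against 328, 1040 and 1518, with a difference of 2.22 (SE 0.16, adjusted p = 4.2e-06). Then came Porcn, the acyltransferase that WNT ligands need for secretion, with medians of 44 and 190 and a difference of 2.18 (SE 0.19, adjusted p = 8.9e-06).

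The other genes of this group had differences between 1.62 and 2.18. Irf5 is an interferon regulatory factor (medians 24 and 151), Zan a sperm membrane protein (52 and 181), Tlx2 a homeobox factor (113 and 526), Cgnl1 a junction protein (48 and 166), Foxn4 a forkhead factor of retinal and spinal progenitors (54 and 191), Basp1 a membrane protein of growth cones (207 and 823) and Megf11 a cell surface protein of neurons (72 and 329). In the NC pair Irf5 (171 and 175) and Megf11 (403 and 405) hardly differed, the narrowest gap of each. Irf5 overlaps Tnpo3 and Zan overlaps Ephb4 on the opposite strand, and since no source used here says that strand was kept, reads of such partners cannot be told apart. The casein genes Csn3 and Csn1s2b had a different shape. Csn3 lay between 38 and 103 in number 1, and in number 2 between 71 and 127 in 5 groups and between 506 and 872 in 6. Csn1s2b reached 649 in number 2 with a median of 44, and its call (difference 1.67, SE 0.57, adjusted p = 0.026) was lost without the DZNep, IOX1 or Valproate pair (1.32, 1.39 and 1.32, adjusted p of 0.052 to 0.059). By lowest p, the rule also named Dock3, a guanine exchange factor of neurons (difference 1.17, SE 0.07, adjusted p = 2e-06), and Syndig1, a synapse protein (1.04, SE 0.08, adjusted p = 4.3e-06).

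**Figure D3:**
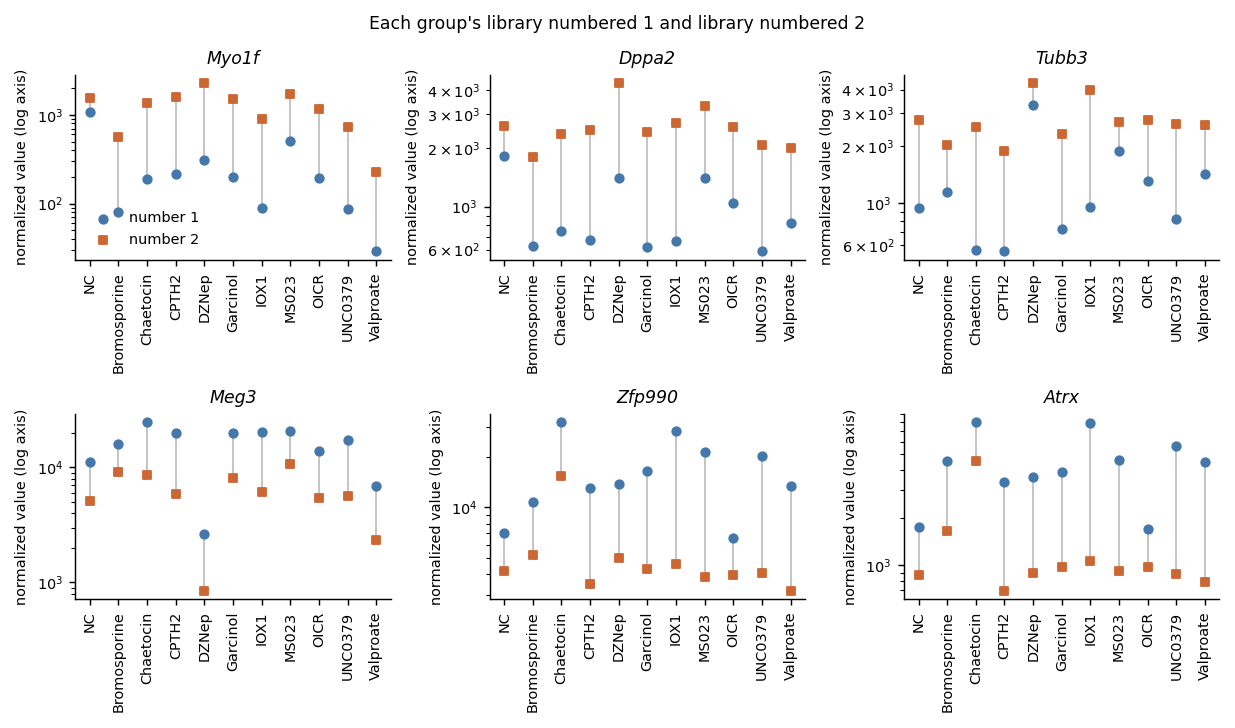
Normalized values (log axis) of 6 genes in the 11 groups, with a grey line joining the library numbered 1 (circle) and the library numbered 2 (square) of a group. Myo1f, Dppa2 and Tubb3 are higher and Meg3, Zfp990 and Atrx lower in number 2 in all 11 groups. The NC pair is among the narrowest for Myo1f (1065 and 1565) and Dppa2 (1827 and 2604), and the Chaetocin library numbered 2 stands out for Zfp990 (15363) and Atrx (4528).

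Atrx, a chromatin remodeller that helps to deposit histone H3.3, was called lower, with values of 1704, 4489 and 7978 in number 1 and 695, 919 and 4528 in number 2. Without the Chaetocin library, at 4528, and the Bromosporine library, at 1650, the number 2 values stayed at or under 1064, below every number 1 library. The difference was -1.89 (SE 0.20, adjusted p = 2.5e-05). Rif1, which sets the time of replication and guards DNA ends, went from a median of 8718 (3816 to 14112) to 2169 (1175 to 8842), a difference of -1.81 (SE 0.20, adjusted p = 3.1e-05).

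Cenpf, Cenpe and Mki67, which bind kinetochores or coat mitotic chromosomes, were lower in the same way. Cenpf had medians of 1734 and 397 and a difference of -1.78 (SE 0.21, adjusted p = 3.9e-05), Mki67 of 2265 and 645 with -1.77 (SE 0.20, adjusted p = 3.1e-05), and Cenpe of 899 and 279 with -1.60 (SE 0.18, adjusted p = 3.3e-05). Each was lower in all 11 pairs. Of the 30 mitosis genes on the list, which holds these 3, 11 were lower and 8 higher, with a median of 0.00, and Cdc20, an activator of the anaphase promoting complex, went from a median of 6288 to 8701 (difference 0.43, SE 0.04, adjusted p = 1.8e-05).

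On the lower side, the same conditions selected the following genes too. Trim50, a ubiquitin ligase, had medians of 256 and 43 (difference -2.46, SE 0.26, adjusted p = 2.1e-05), Uba7, the activating enzyme for ISG15, 163 and 40 (-2.14), Zfr2, a zinc finger RNA-binding protein, 181 and 33 (-1.92), Mroh4 137 and 53 (-1.79) and Fxyd2, a regulator of the sodium pump, 637 and 162 (-1.78). Mroh4 was among the genes whose sets did not overlap, with 84 to 247 in number 1 and 8 to 70 in number 2. By lowest p, the rule added Ebf1, a B cell and mesenchymal factor (-1.28), Mal, a membrane raft protein (-1.27), Ablim1, an actin-binding protein (-1.23), and Ldhd, a lactate dehydrogenase (-1.71), each lower in all pairs with an adjusted p between 2e-06 and 5.3e-06. Uba7 overlaps Gm20661 on the same strand and Ldhd overlaps Znrf1 on the opposite strand, and 54.8% of the 31-base stretches of Ldhd recur in other genes.

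Base composition moved with the direction of the calls. In the 10% of genes with the lowest GC content of the transcript (25.6% to 39.3%), 88 genes were called lower and 14 higher. In the 10% with the highest (57.7% to 76.3%), 16 were called lower and 83 higher. The median GC content was 52.8% for genes called higher, 44.7% for genes called lower and 48.7% for all tested genes, of which 97.2% had a value. The median differences of the 10 GC classes lay between -0.03 and 0.11. Median transcript lengths were close (3056 bases for genes called higher, 2870 for genes called lower, 3142 for all). Zfp990 (35.6%), Rian (35.8%), Rif1 (39.3%) and Atrx (39.5%) lie at the low end, Meg3 (49.2%) in the middle and Prrt3 (60.7%) at the high end. An alternative added after the data had been seen subtracted a smooth trend in GC content and length from each library. Under it 630 of the 698 genes were called again, and the differences were -1.86 for Zfp990, -1.86 for Atrx, -1.37 for Meg3 and 2.10 for Prrt3.

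**Figure D4:**
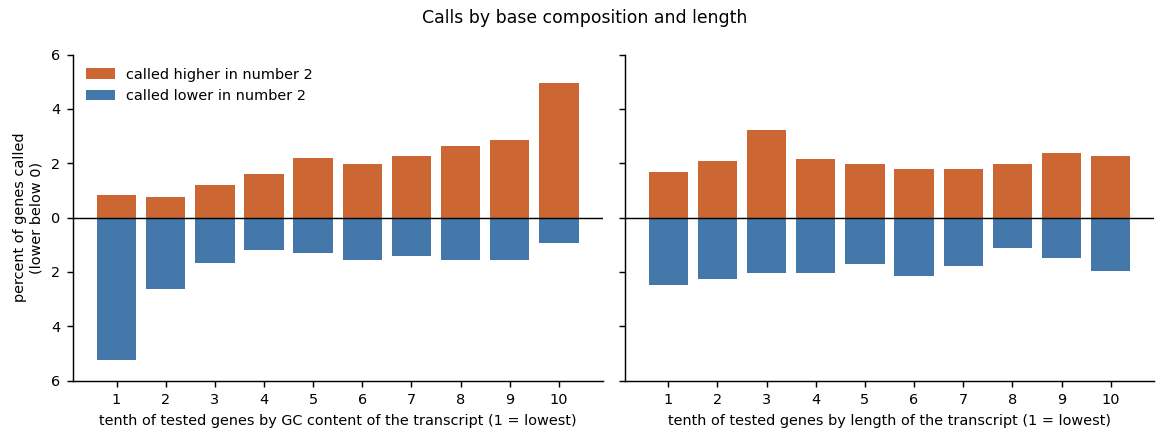
Percent of genes called higher (above 0) or lower (below 0) in number 2, in 10 equal classes of the tested genes by GC content (left) and by length (right) of the transcript. Lower calls make up 5.24% of the lowest GC class and 0.952% of the highest, and higher calls 0.833% and 4.94%.

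Turning to cell states, genes of the 2-cell stage were higher in number 2. Of 19 tested, 12 passed as higher and none as lower (29.9% and 22.8% of all tested genes). Of these, 7 were called higher, against 2.09% of all tested genes and 9.49% in the class with the lowest mean log2 values. The median difference was 1.05 against 0.03 for all tested genes. By pair, the median of the 2-cell list lay above that of all genes in 9 of 11 and below it in 2. The lowest pair median was -0.24. Dppa2, an activator of that programme that stem cells also express at large, had values of 588, 745 and 1827 in number 1 and 1808, 2495 and 4361 in number 2. All pairs were higher in number 2, and only the NC library numbered 1 (1827) reached into the number 2 range, past the Bromosporine library (1808). The difference was 1.53 (SE 0.12, adjusted p = 6.3e-06), and 33.9% of its 31-base stretches recur in other genes. Its partner Dppa4 had medians of 1658 and 2074 (difference 0.25, SE 0.04, adjusted p = 0.00042).

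The genes that define the state itself were at low values and uneven. Zscan4c had values of 0, 23 and 94 in number 1 and 0, 57 and 153 in number 2, higher in 9 of 11 pairs, with a difference of 1.26 (SE 0.43, adjusted p = 0.024). This call was lost without the CPTH2 pair (1.08, adjusted p = 0.056) or the Chaetocin pair (0.90), and in an unpaired fit (adjusted p = 0.27). Zscan4f (difference 1.64, SE 0.63, adjusted p = 0.042) lost its call without any 1 of 7 pairs. Of the Zscan4c and Zscan4f transcripts, 91.5% and 97.6% of the 31-base stretches recur in other genes, so that these copies are not separate measurements. With a pseudocount of 10 the median of the list was 0.51. In the Bromosporine pair Zscan4c was listed at 0 in both libraries. The NC pair showed no rise, with Zscan4c at 64 in number 1 and 66 in number 2 and Zscan4f at 65 and 43. For DZNep, Zscan4c stood at 33 and 21 and Zscan4f at 8 and 58.

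Of 24 naive pluripotency genes, 2 were higher, 10 lower, 12 did not pass and none was called, with a median of -0.10. Pou5f1 had medians of 28606 in both numbers (difference -0.00, SE 0.04, adjusted p = 0.95). Sox2 went from a median of 15374 to 13113 (-0.23, SE 0.05, adjusted p = 0.0012), Esrrb from 27752 to 24752 (-0.08, adjusted p = 0.083) and Klf4 from 4590 to 4384 (-0.14, adjusted p = 0.16). Nanog was higher, with medians of 41831 and 59405 (0.48, SE 0.09, adjusted p = 9e-04), and Klf2 too (0.40, SE 0.12, adjusted p = 0.016). Dppa3, a maternal factor of naive cells, was lower in every pair, with medians of 318 and 188 (-0.84, SE 0.15, adjusted p = 0.00058). Zfp42 had medians of 20763 and 24773 and a difference of 0.09 (SE 0.08, adjusted p = 0.33).

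Of 20 formative and primed genes, 10 were higher and 2 lower, with a median of 0.20. Dnmt3b, a de novo DNA methyltransferase, had values of 391, 630 and 2244 in number 1 and 900, 1228 and 2067 in number 2. It was higher in all pairs but DZNep, at 2244 and 1980. The difference was 0.81 (SE 0.12, adjusted p = 0.00017), beside 0.84 for Dnmt3a (SE 0.12, adjusted p = 0.00014) and 1.05 for Dnmt3l (SE 0.27, adjusted p = 0.0058). Dnmt3l was higher in all pairs but DZNep, where it went from 1487 to 612, so that its mean was 205 in number 1 and 171 in number 2 although its median went from 22 to 50. Pou3f1, a POU factor of the epiblast, went from a median of 45 to 99 (1.01, SE 0.15, adjusted p = 0.00019). Both Dnmt3l and Pou3f1 sit at the 2-fold limit, with 0.95 for Dnmt3l without the NC pair and 0.94 for Pou3f1 without the Garcinol pair, and Dnmt3l had an adjusted p of 0.42 in the unpaired fit. Otx2 (-0.34) and Fgf5 (0.21), 2 further markers of this state, did not pass.

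Among neuronal genes, 8 of 15 were higher and 1 lower, with a median of 0.39, above the median of all genes in all 11 pairs. Tubb3, the neuronal beta-tubulin, had values of 556, 958 and 3331 in number 1 and 1880, 2638 and 4333 in number 2, with a difference of 1.32 (SE 0.17, adjusted p = 6.1e-05), higher in all pairs. Gap43, a growth cone protein, went from a median of 24 to 72 (1.61, SE 0.22, adjusted p = 0.00012) and Elavl3, an RNA-binding protein of neurons, from 19 to 48 (1.25, SE 0.21, adjusted p = 4e-04). Sox1 (-0.09), Nes (-0.02) and Map2 (-0.08) did not pass.

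In the primitive streak and mesoderm list 6 of 19 were higher (31.6%, near the 29.9% of all tested genes) and 2 lower (10.5%, against 22.8%), with a median of 0.15. Wnt3a, a streak ligand, had medians of 13 and 47 and was higher in all pairs (1.48, SE 0.24, adjusted p = 0.00028), and Nodal, the ligand that patterns the epiblast, had medians of 1400 and 2144 (0.55, SE 0.10, adjusted p = 0.00071). The streak factor T was lower, with medians of 25 and 22 and a highest value of 125 in number 1 against 36 in number 2 (-0.76, SE 0.20, adjusted p = 0.0072). Evx1 (1.37), Cdx1 (1.09) and Mixl1 (1.01) were called higher, but an unpaired fit took the call from Evx1 (adjusted p = 0.095) and Cdx1 (adjusted p = 0.16), and Mixl1 came to 0.71 without the UNC0379 pair. Cdx1 went the other way in the NC pair, from 1773 to 1006. Among 22 genes of primitive endoderm, 9 were higher and 6 lower: Dkk1, an inhibitor of WNT signalling, had medians of 9 and 36 (1.76, SE 0.38, adjusted p = 0.0019), whereas Apoe, an apolipoprotein, went from a median of 39247 to 19758 (-0.92, SE 0.12, adjusted p = 6.2e-05) and Lama1, a laminin chain, from 8733 to 4866 (-0.78, SE 0.05, adjusted p = 2e-06). In the trophoblast list, 2 of 16 were higher and 6 lower, with a median of 0.02. The called members went both ways, with Krt7, a keratin, at medians of 140 and 32 (-1.74, SE 0.19, adjusted p = 2.5e-05) and Gata3, a trophoblast factor, at medians of 4 and 9 (1.11, SE 0.34, adjusted p = 0.014). Gata3 came to 0.89 without the NC pair and had an adjusted p of 0.13 in the unpaired fit.

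The germline list gave 9 higher and 6 lower of 24. Stra8, the meiotic entry factor, had values of 36, 172 and 1472 in number 1 and 109, 929 and 4562 in number 2 and was higher in all pairs but NC, where it stood at 1159 and 1067 (difference 1.90, SE 0.23, adjusted p = 4.4e-05). Sycp2 encodes a protein of the synaptonemal complex. Its value was at or under 20 in 1 library numbered 1 and in 7 numbered 2, and at least 577 in the others, and it was called lower.

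Sycp2 is 1 of a group of genes with such a split. For 558 tested genes, each library was either at or under 20 or at or over 200, with both kinds present, and for 338 of them more number 2 than number 1 libraries were low, against 115 with fewer. Of these 558 genes 54 were called lower and 10 higher, against 1.95% and 2.09% of all tested genes. Usp9y, on the Y chromosome, was at 0 in 2 libraries numbered 1 and in 6 numbered 2 and at least 227 in the others, while on the same chromosome Ddx3y had medians of 2228 and 2020 (difference -0.14, SE 0.04, adjusted p = 0.0083) and Eif2s3y 2780 and 2913 (0.06, SE 0.04, adjusted p = 0.2). Gm37755 was between 399 and 988 in all libraries numbered 1 and at 0 in 7 numbered 2, and AY036118 between 180 and 7158 in number 1 and at 0 in 8 numbered 2. AY036118 lies in a gene of the opposite strand, Gm42418, all of its 31-base stretches recur in other genes, and the kit's strand was not stated, so its reads cannot be assigned. No fold is given for Usp9y, Gm37755 or AY036118, because a 0 in this table can come from the counting. None is given for Sycp2 either, which had no library at 0 but was split in the way described.

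**Figure D5:**
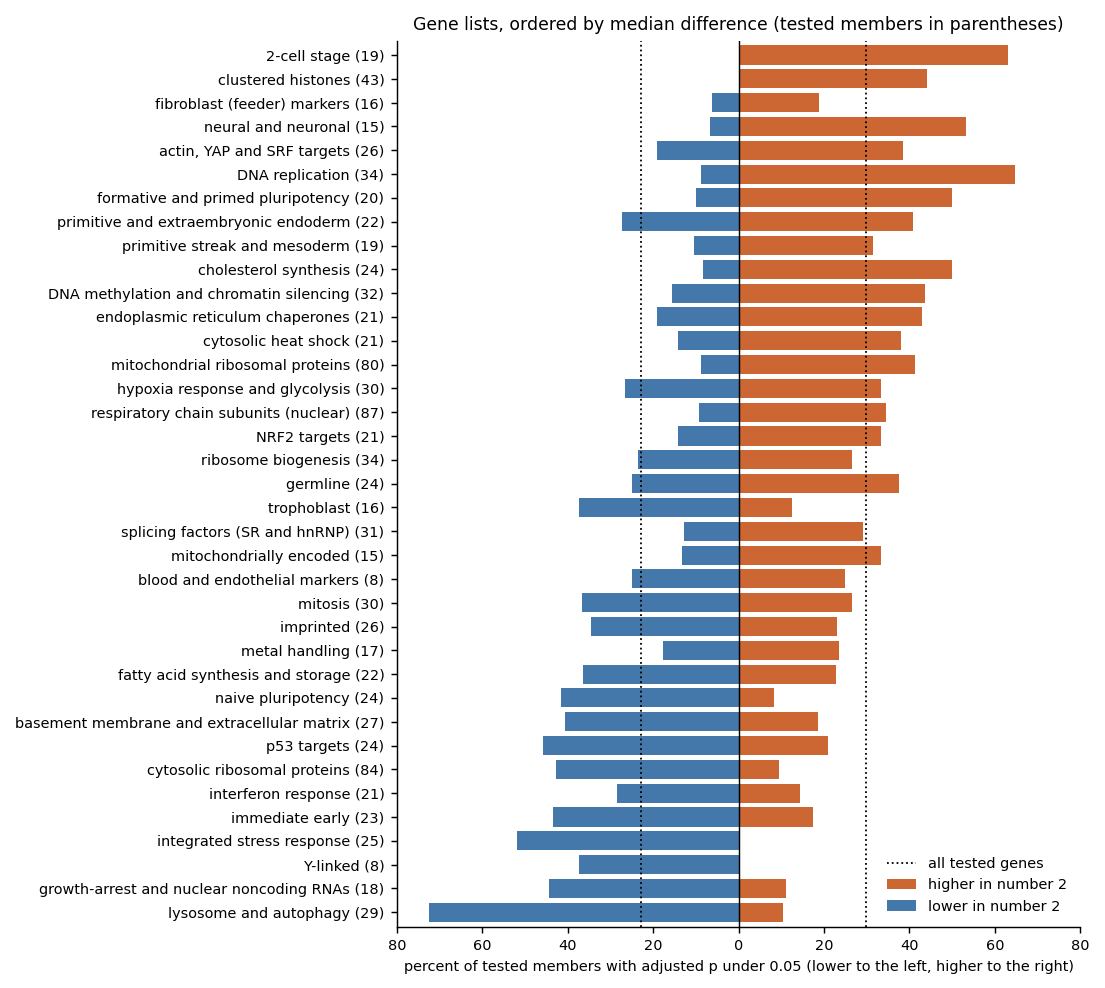
Percent of the tested members of 37 gene lists that were higher (right) or lower (left) in number 2 at an adjusted p under 0.05, ordered by median difference. Dotted lines mark all tested genes, 29.9% higher and 22.8% lower. The 2-cell list (63.2% higher, none lower) and clustered histones (44.2%, none lower) are at the top, and lysosome and autophagy genes (72.4% lower, 10.3% higher) at the bottom.

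Lysosome and autophagy genes had the largest share of lower members among the 37 lists: 21 of 29 were lower, 3 higher and 5 did not pass, with a median of -0.36 and a list median below that of all genes in all 11 pairs. Lamp2, a membrane protein of lysosomes that autophagy needs, had values of 2824, 5332 and 7005 in number 1 and 1398, 2398 and 3759 in number 2. The difference was -1.03 (SE 0.09, adjusted p = 1e-05), lower in all pairs, and it fell short of 2-fold without the Valproate (-0.97), Chaetocin (-0.99) or CPTH2 pair. The cathepsins Ctsa (-0.81), Ctsl (-0.66), Ctsb (-0.52) and Ctsd (-0.49) were lower in all pairs as well. The 3 higher members were Gabarapl2, an ATG8 protein (0.84, SE 0.09, adjusted p = 2.1e-05), Tfeb, the transcription factor that controls lysosomal genes (0.47, SE 0.05, adjusted p = 2.1e-05), and Atp6v1h, a subunit of the proton pump (0.32), each higher in all pairs.

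In the integrated stress response, 13 of 25 genes were lower and none higher, with a median of -0.24. Ddit3, its death-associated factor, went from a median of 1531 (770 to 3067) to 602 (143 to 2930), a difference of -1.12 (SE 0.20, adjusted p = 0.00056), and -0.94 without the Valproate pair. Nupr1 had medians of 2881 and 1353 (-1.01, SE 0.16, adjusted p = 0.00029), -0.89 without that pair and -0.93 without the Chaetocin pair, with an adjusted p of 0.077 in the unpaired fit. Atf4, the factor that drives the programme, had medians of 11808 and 10004 (-0.38, SE 0.09, adjusted p = 0.0027). Immediate early genes gave 10 lower and 4 higher of 23: Dusp1, a phosphatase that ends MAP kinase signals, had medians of 3772 and 1570 (-1.17, SE 0.14, adjusted p = 3.6e-05), and Jun (-0.84, SE 0.13, adjusted p = 0.00021) and Fos (-0.79, SE 0.12, adjusted p = 0.00021) were lower in all pairs. Myc was low, with medians of 12 and 26, and its difference of 1.04 fell to 0.67 with a pseudocount of 10.

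Among p53 targets, 11 of 24 were lower and 5 higher, none called. Heat shock genes gave 8 higher and 3 lower of 21, with Hsp90aa1, the inducible HSP90, as the single call. It held 67576 to 123367 in number 1, with 123367 as the median, and 19138, 53841 and 75957 in number 2, lower in all pairs (-1.27, SE 0.19, adjusted p = 0.00018). These are ranks near the top of the table, where the normalization gives the same few values to whichever genes lie there, and 62.9% of its 31-base stretches recur in other genes. Its partner Hsp90ab1 was at 221616, the top value, in all libraries. The interferon list (3 higher, 6 lower of 21), the hypoxia and glycolysis list (10 and 8 of 30), endoplasmic reticulum chaperones (9 and 4 of 21) and the basement membrane and matrix list (5 and 11 of 27) had medians between -0.20 and 0.13.

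Of 34 DNA replication genes, 22 were higher and 3 lower, with a median of 0.20 and no call. Mcm5, a subunit of the replicative helicase, had values of 13125, 19257 and 29528 in number 1 and 26769, 35404 and 45109 in number 2, higher in all pairs (0.82, SE 0.09, adjusted p = 2.7e-05), and Rrm1, of ribonucleotide reductase, differed by 0.52 (SE 0.08, adjusted p = 0.00022). Clustered histone genes, whose messages normally lack a poly(A) tail, were higher in 19 of 43 cases and lower in none, with a median of 0.61. They were at low values, with a median of 21.9 over the gene means. Hist1h1a had medians of 9 and 20 (1.08, SE 0.21, adjusted p = 0.0011), which became 0.65 with a pseudocount of 10. The median of the list was 0.38 with that pseudocount and 0.43 with the GC and length trend subtracted.

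Cytosolic ribosomal protein genes were lower in 36 of 84 cases and higher in 8, with a median of -0.16. Rpl23 had medians of 29399 and 20665 (-0.46, SE 0.07, adjusted p = 0.00028), and Rpl39 17912 and 13062 (-0.46, SE 0.07, adjusted p = 0.00022). Rpl39l, a paralogue of Rpl39 known from male germ cells, was the single call and in the opposite direction, with 551, 987 and 4223 in number 1 and 1412, 2417 and 9907 in number 2 (1.21, SE 0.12, adjusted p = 2e-05), higher in all pairs. Mitochondrial ribosomal proteins (33 higher and 7 lower of 80), nuclear-encoded respiratory chain subunits (30 and 8 of 87) and cholesterol synthesis genes (12 and 2 of 24) had medians of 0.10, 0.07 and 0.14, and none was called. Of 15 mitochondrially encoded genes, 5 were higher, 2 lower and 8 did not pass, with a median of 0.005. Among them mt-Nd3 (0.82, SE 0.07, adjusted p = 1.1e-05) and mt-Rnr1 (0.78, SE 0.07, adjusted p = 8.8e-06) were higher in all pairs, while mt-Atp6 differed by -0.54.

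Of the remaining lists, fibroblast markers gave 3 higher and 1 lower of 16 (median 0.50), actin, YAP and SRF targets 10 and 5 of 26 (0.26), and blood and endothelial markers 2 and 2 of 8. Fatty acid synthesis and storage gave 5 higher and 8 lower of 22, metal handling 4 and 3 of 17, ribosome biogenesis 9 and 8 of 34 and splicing factors 9 and 4 of 31. Steap3, a metalloreductase of endosomes on the metal list, went from a median of 322 (169 to 1235) to 1126 (326 to 1908), with a difference of 1.40. It was higher in all pairs but NC, at 1235 and 1126. The fatty acid binding protein Fabp3 had a difference of -1.01, which was -0.93 without the Valproate pair, and 50.1% of its 31-base stretches recur in other genes.

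Chromatin genes held both directions: of 32 in the list of DNA methylation and silencing, 14 were higher and 5 lower. Kdm1a, a histone H3 lysine demethylase, went from a median of 10924 to 16404 (0.69, SE 0.07, adjusted p = 2.1e-05) and Suz12, a core part of Polycomb complex PRC2, from 13113 to 9031 (-0.77, SE 0.11, adjusted p = 0.00012). Nuclear noncoding RNAs were lower in 8 of 18 cases and higher in 2. Malat1, which is retained in nuclear speckles, had values of 6806, 8858 and 36708 in number 1 and 1718, 3966 and 6436 in number 2, with no overlap between the sets (-1.73, SE 0.19, adjusted p = 2.4e-05). Short annotated genes lie within it on both strands. Neat1, the scaffold of paraspeckles, went from a median of 6606 to 3692 (-0.77, SE 0.13, adjusted p = 0.00035), and Xist, which overlaps Tsix on the other strand, from 93 to 43 (-1.36, SE 0.22, adjusted p = 0.00027).

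By gene type, 18 of 56 sense intronic RNAs were lower and 5 higher, with a median of -0.39. Of 573 putative transcripts of the class TEC, 41 were called lower (7.16%, against 1.95% of all tested genes) and 5 called higher (0.873%, against 2.09%). Of 129 unprocessed pseudogenes, 53 were higher and 10 lower, with a median of 0.31, and many such copies share reads with their parent genes. Among 101 families of genes that share the letters of their symbol, the highest medians were those of the Hist genes (0.61) and of the vomeronasal receptors (Vmn, 63 higher and 3 lower of 92, median 0.56), and the lowest was that of the aldehyde dehydrogenases (Aldh, 9 lower and none higher of 18, median -0.29). Olfactory receptors (Olfr) were higher in 116 of 274 cases and lower in 12, with a median of 0.23. Both receptor families lay at a median value of 72.2 (Vmn) and 124 (Olfr) in these libraries, and both hold many near-identical copies. By chromosome the medians ran from -0.01 (chromosomes 3 and 16) to 0.08 (chromosome 6), apart from the 45 genes of the Y chromosome, at 0.55, where 25 were higher and 3 lower. The list of 8 Y-linked genes, Usp9y and Ddx3y among them, went the other way, with none higher, 3 lower and a median of -0.29, below the median of all genes in all 11 pairs.

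Of the abundant reference genes, Actb went from a median of 28591 to 41888 (0.48, SE 0.10, adjusted p = 0.0014), and Gapdh was at 123460 or 221616 in all libraries (0.23, SE 0.11, adjusted p = 0.098). With the number as a block, the same kind of fit called 2606 genes for DZNep against NC and 1 for CPTH2, the ends of the range over the 10 compounds. The 698 genes called between the numbers lie between the counts of Bromosporine (1189) and MS023 (485). These contrasts have fewer libraries than the comparison of numbers, so that the counts differ in power as well as in size.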

How the data were processed

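Poly(A)-selected RNA-seq of mouse E14 embryonic stem cells was analysed in 22 libraries. Per the submitters' processing notes and the study's methods, the authors used Bowtie2 2.2.5 and the mm10 build, RSEM for gene counts and EDASeq for normalization. The deposited values are scores, that is normalized counts rounded to whole numbers, with the same distribution in every library. Depth is therefore unknown, and a change shared by most genes would be removed. A table of group means was not used, and 0 columns were without a sample.

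Values were taken as log2(value + 1). Genes with at least 10 in at least 2 libraries were tested with limma 3.58.1 (R 4.3.3), with number and group as terms, variances moderated with a trend and 10 residual degrees of freedom. P-values are two-sided and adjusted by Benjamini-Hochberg over all 17275 tested genes. Differences are number 2 minus number 1, on the log2(value + 1) scale, which understates changes of low genes. Calls were nevertheless most frequent among the genes with the lowest values. The fit was tested on simulated data. Gene positions, types, GC content and transcript length came from GENCODE M21 (97.1% of symbols matched), and promoter windows from RefSeq.

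The comparison, the gene lists and the rule for named genes were chosen with earlier results of these data known. The rule took the 12 largest differences in each direction among called genes that moved the same way in all 11 pairs, were above 0 in all 22 libraries, had a mean of at least 100 in the higher set and carry a given gene name. To these it added the 3 largest in each direction without the conditions on name and on 0, the 5 lowest p-values in each direction, up to 4 called members of each list, and 15 fixed genes such as Pou5f1, Malat1 and Gapdh. Other genes, and the 3 regions, were chosen after their values had been seen. Alternatives were other pseudocounts, filters, scalings, moderation, pairs left out and an unpaired fit.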

Additional observations from a re-analysis of the deposited data

How the results depend on the processing

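The count of 698 called genes was 376 with a pseudocount of 10 (146 higher, 369 shared with the 698) and 448 when only genes above 0 in all 22 libraries were tested (223 higher). Leaving out each pair in turn gave 610 to 752 calls, 315 to 402 of them higher and 290 to 350 lower, and 8343 to 9177 genes with an adjusted p under 0.05. The 11 values of number 1 against the 11 of number 2 without the group as a block (unpaired) gave 4559 genes with an adjusted p under 0.05 in place of 9094, and 499 called, all of them among the 698. The counts over both directions stayed within 1.5 times under the other alternatives. Of the 140 genes chosen by the rule or lying in the 3 regions, 86 were called, 59 of them under every alternative run, and none reversed its direction as a call. A pseudocount of 10 took the call from 17 and the unpaired fit from 13. For the compounds against NC, the number as a block gave 6306 calls summed over the 10 compounds, and 3719 without the replicate block. The differences of 2 pairs, which share no library, correlated across genes with an r of 0.05 to 0.30 (median 0.20), above 0 in all 55 cases and over 0.1 in 51, and number 2 lay higher in all 11 groups on both of the first principal components (16.5% and 11.2% of the variance). The bar of 0.1 in every case was not met. Depth is unknown. Of the 37 list medians, 3 moved by over 1 SD over pairs under an alternative, those of the trophoblast and Y-linked lists when only genes above 0 in all libraries were tested and that of the actin, YAP and SRF targets with the GC and length trend subtracted.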
